A study of Mus musculus with 35 samples.

Results

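Major urinary proteins are small secreted lipocalins, barrel-shaped carriers that bind pheromones and other small lipophilic molecules. They are made in large amounts by hepatocytes and excreted in the urine. In the mouse they are encoded by a tandem cluster of closely similar genes and pseudogenes, and their hepatic transcription is known to depend on growth hormone acting through STAT5b, with far higher output in males than in females. The 10 Mup genes described here were Mup1, Mup3, Mup7, Mup10, Mup11, Mup12, Mup17, Mup18, Mup20 and Mup21, taken by symbol from the 55413 genes of a raw count table of mouse liver. The table holds 49 Mup rows in all, namely these 10, 12 other protein-coding genes and 27 pseudogenes. All 10 passed the filter on low counts, as did 12 of the other coding genes and 18 of the pseudogenes.

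The study examined whether an antisense oligonucleotide against Smyd3, a lysine methyltransferase, alters liver tumours induced by diethylnitrosamine (DEN, a hepatocarcinogen activated in hepatocytes). All 21 mice were C57Bl6. The 5 untreated mice received neither DEN nor an oligonucleotide and were harvested at day 260. The other mice received a single DEN dose of 25 mg/kg at day 14. Of these, 4 were harvested at day 133 without oligonucleotide (DEN P133), 6 were given a control oligonucleotide (control ASO) and 6 the Smyd3 oligonucleotide (Smyd3-ASO), each at 50 mg/kg 2 times a week from day 133 until harvest at day 260. The labels describe the untreated samples as normal liver and the DEN samples as tumours. Every comparison with the untreated group therefore also sets samples labelled as tumours against normal liver. DEN P133 differs from the untreated group in age as well as DEN. The control ASO group differs from the untreated group in both DEN and oligonucleotide. In each comparison these differences, and that between tumour and normal liver, cannot be told apart. An oligonucleotide given to the whole animal is not limited to 1 cell type.

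Each mouse gave 1 column of counts from 3′ end sequencing of liver RNA, with totals of 4556484 to 20258619 counts. Smyd3, the target, stood at 0 to 0.757 CPM (counts scaled to a common library size) in the 6 Smyd3-ASO mice and at 2.36 to 5.47 CPM in the other 15. Xist had 0 counts in all 21 mice, while Ddx3y, Eif2s3y, Kdm5d and Uty, which lie on the Y chromosome, had counts in every mouse. The summed level of 8 hepatocyte markers was 52554 to 105486 CPM in untreated, 42334 to 44488 in DEN P133, 50046 to 70343 in control ASO mice, and 23824 to 42555 with Smyd3-ASO. The 6 bile duct markers summed to 14.8 to 30.7 CPM in untreated, 22.6 to 50.5 in DEN P133, 108 to 227 in control ASO mice, and 43.1 to 72.7 with Smyd3-ASO. In bulk liver, fewer hepatocytes and less Mup RNA per hepatocyte cannot be told apart, and the part of cell make-up in the results below was not tested. In CPM without logs, 4 mice stood apart from their groups in some Mup genes: untreated mouse 3, control ASO mouse 1 and Smyd3-ASO mice 5 and 6, all on the high side.

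The 10 genes lie on mouse chromosome 4 between positions 60066469 and 62150863 (mm10, GENCODE vM21), all on the minus strand. In their order along the chromosome they are Mup7, Mup1, Mup10, Mup11, Mup12, Mup17, Mup18, Mup20, Mup3 and Mup21. The first 7 belong to the central, recently duplicated stretch of the cluster, while Mup20, Mup3 and Mup21 lie together at its far end. RefSeq promoters (GRCm38.p6) matched 7 of the 10, and the 250 bases before the RefSeq start of 3 of them are shown because the copies differ by few bases and 2 kinds of neighbourhood can be read off side by side. Mup10 and Mup17 represent the central stretch and Mup3 the far end. They are written 5′ to 3′ on the gene's strand, with the motif TATATAAGG in capitals.
Mup10 (chr4:60582156-60582405): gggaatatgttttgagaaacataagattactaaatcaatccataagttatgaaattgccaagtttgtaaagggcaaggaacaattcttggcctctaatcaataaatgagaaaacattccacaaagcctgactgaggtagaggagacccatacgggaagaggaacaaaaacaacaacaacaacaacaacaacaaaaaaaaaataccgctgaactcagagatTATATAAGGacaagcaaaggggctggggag
Mup17 (chr4:61595833-61596082): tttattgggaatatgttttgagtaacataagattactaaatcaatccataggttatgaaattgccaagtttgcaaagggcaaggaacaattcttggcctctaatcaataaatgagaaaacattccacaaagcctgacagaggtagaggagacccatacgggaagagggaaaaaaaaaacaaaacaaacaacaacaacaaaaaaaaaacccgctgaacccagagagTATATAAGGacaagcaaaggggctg
Mup3 (chr4:62087318-62087567): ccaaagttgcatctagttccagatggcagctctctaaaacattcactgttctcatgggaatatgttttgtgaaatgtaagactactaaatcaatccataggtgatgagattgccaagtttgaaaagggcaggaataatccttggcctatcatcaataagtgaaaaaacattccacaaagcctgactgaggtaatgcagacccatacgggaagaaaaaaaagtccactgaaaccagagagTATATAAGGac

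Over aligned bases, the 300-base promoter windows of Mup10 and Mup17 were 94.9% identical (294 bases aligned), those of Mup11 and Mup17 99.6% (276 bases) and those of Mup3 and Mup21 93.9% (294 bases). Mup10 and Mup3 shared 87.3% over 245 aligned bases. The motif TATATAAGG, searched on both strands, was found in 6 of the 7 windows, each time on the gene's strand, and in 0.307% of all 32851 promoters of the table. The Mup7 window did not hold these letters. The palindromic motif TTCNNNGAA, the core of STAT5 sites, was found in 0 of the 7 windows and in 8.30% of all promoters, which says only that these letters are not in these 300 bases. Mup1, Mup12 and Mup20 had no entry.

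Because 3′ sequencing reads only the end of a transcript, near-identical ends decide which gene a read is counted for. Of the 50-base stretches in the last 300 bases of Mup1, Mup7 and Mup10, 100% occur word for word in another Mup row's transcripts. The share was 82.1% for Mup12, 80.1% for Mup18, 61.4% for Mup11 and 43.4% for Mup17. It was 17.9% for Mup21, 7.17% for Mup20 and 6.37% for Mup3, whose counts are thus largely their own. How reads that fit several genes were counted is not given in the sources used here, so the split of counts among the central genes is uncertain, and Mup3, Mup20 and Mup21 are the members whose own values can be read most directly.

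The 10 genes held a large part of the liver's polyadenylated RNA in untreated mice and less in both ASO groups. Their share of all counts was 4.81, 11.8, 18.0, 8.11 and 9.15% in the 5 untreated mice, a mean of 10.4% ± 4.94 (SD, n = 5). In DEN P133 mice it was 8.44, 8.33, 8.40 and 7.03%, a mean of 8.05% ± 0.682 (SD, n = 4). Control ASO mice ranged from 0.971 to 5.55% with a median of 1.67% and a mean of 2.42% ± 1.82 (SD, n = 6). Smyd3-ASO mice ranged from 1.18 to 8.46% with a median of 2.55% and a mean of 3.67% ± 2.76 (SD, n = 6). Every control ASO mouse lay below every DEN P133 mouse. Control ASO mouse 1, at 5.55%, lay above untreated mouse 1, at 4.81%, and the 2 ASO groups overlapped over most of their range. All 49 Mup rows together reached 11.8 to 37.8% of counts in untreated, 15.0 to 18.1% in DEN P133, 1.84 to 11.8% in control ASO mice, and 2.54 to 16.4% with Smyd3-ASO. The widest 95% exact binomial interval of any of these shares spanned 0.0692 percentage points and covers counting error only, which is far narrower than the spread between mice. No test was made on these sums, since the members were chosen with results known.

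**Figure D1:**
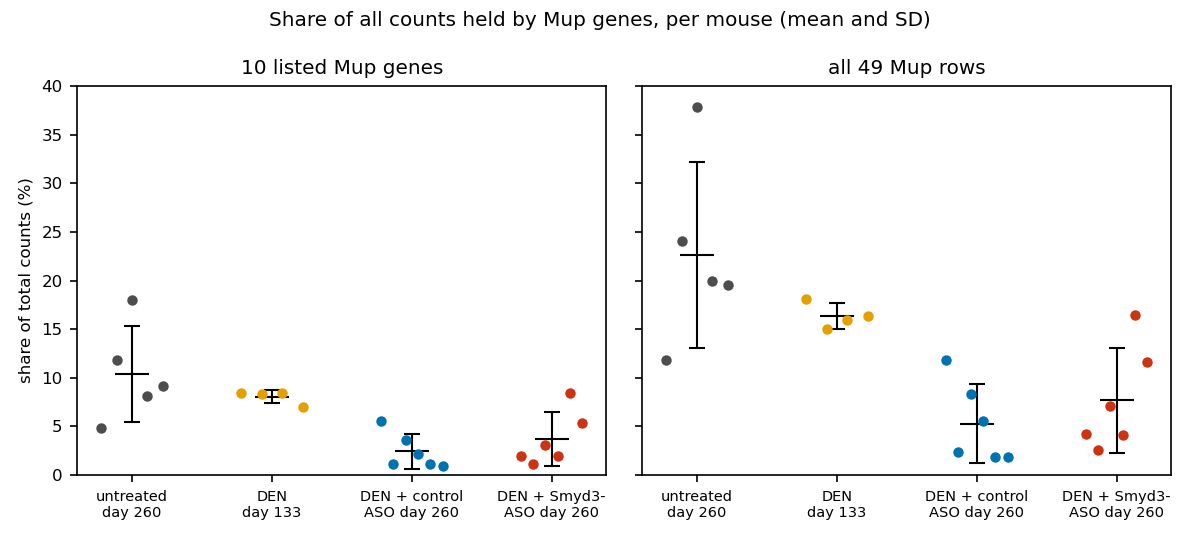
Share of all counts (%, vertical axis from 0) held by the 10 listed Mup genes (left) and by all 49 Mup rows (right), 1 point per mouse in the 4 groups, with the group mean and SD as bars. Untreated mice spread from 4.81 to 18.0% for the 10 genes, DEN P133 mice sit close together at 7.03 to 8.44%, and most mice of both ASO groups lie below both.

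A share depends on what else the liver transcribes, so levels were also given in CPM scaled by TMM, a normalisation that holds the bulk of genes constant between mice. Each comparison below was a two-sided edgeR quasi-likelihood test of 15297 genes, with p adjusted by Benjamini-Hochberg over all of them and a threshold of 0.05. The 6 comparisons share groups and are not independent of each other.

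Against untreated liver, DEN-treated mice on control ASO had lower transcript levels of most Mup genes. Of the 10, 8 were lower and 0 higher. Over all genes 45.9% were called, 22.2% lower and 23.7% higher. The median change of the 10 was -3.01 on the log2 scale, against 0.06 over all genes. The fall was clearest in Mup10, whose levels in untreated mice were 27815, 45267, 64322, 25177 and 48237 CPM. In control ASO mice Mup10 had 1122 CPM at the lowest, a median of 2631 and 12127 at the highest. No control ASO mouse reached the lowest untreated mouse, and Mup10 fell 9.86-fold (log2 -3.30, SE 0.63, adjusted p = 0.00105), with a change of -3.96 without control ASO mouse 1.

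Mup1, whose circulating protein has been linked to glucose and energy metabolism, stood at 13892, 67143, 47255, 31486 and 39880.4 CPM in untreated mice. The control ASO mice had 1752 CPM at the lowest, a median of 4493 and 13276 at the highest. In CPM all lay below the untreated range, although control ASO mouse 1 nearly touched untreated mouse 1. As a share of all counts the groups overlapped, with control ASO mouse 1 at 1.41% and untreated mouse 1 at 1.09%. Mup1 fell 6.66-fold (log2 -2.74, SE 0.58, adjusted p = 0.00214). Mup12, a further central copy, was at 5552, 8813, 9571, 10478 and 9550 CPM in untreated mice and at 445 to 3622 CPM in control ASO mice. The groups did not overlap in Mup12, either in CPM or as a share of all counts. Mup12 fell 5.02-fold (log2 -2.33, SE 0.55, adjusted p = 0.00479).

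Mup3, a member at the far end of the cluster with mostly unshared 3′ sequence, had 7354, 12305, 18998, 11902 and 5973 CPM in untreated mice. Control ASO mice had 610.4 CPM at the lowest, a median of 1536 and 4015 at the highest and in CPM lay below every untreated mouse. As a share of all counts the groups overlapped. Control ASO mice 1 and 3, at 0.427 and 0.403%, lay above untreated mouse 5, at 0.371%. Mup3 fell 5.58-fold (log2 -2.48, SE 0.49, adjusted p = 0.00123). Of the genes that fell, it was the one with the smallest share of 3′ stretches found in other Mup rows.

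Mup11, Mup17 and Mup18 had the largest fitted falls of the 10 and the widest errors in this comparison. Untreated mouse 3 carried 49516 CPM of Mup11, while the other untreated mice had 794, 7178, 7006 and 9102 CPM. In control ASO mice Mup11 had 30.1 CPM at the lowest, a median of 179 and 3636 at the highest, so the groups overlapped through untreated mouse 1. Mup11 fell by 4.26 on the log2 scale (SE 1.45, adjusted p = 0.0365), and without untreated mouse 3 the change was -2.97 with an adjusted p of 0.101. Leaving out untreated mouse 5, or control ASO mouse 2, 3, 4, 5 or 6, also ended the call, with adjusted p from 0.0516 to 0.0696. Mup17 changed by -4.84 (SE 1.47, adjusted p = 0.0226), and by -3.05 with an adjusted p of 0.0686 without untreated mouse 3. For Mup18 the change was -4.71 (SE 1.35, adjusted p = 0.0174), and -3.41 with an adjusted p of 0.0445 without untreated mouse 3. Without control ASO mouse 1 the changes were larger, at -6.26 for Mup11, -5.97 for Mup17 and -5.57 for Mup18. Mup7 fell 9.68-fold (log2 -3.28, SE 0.97, adjusted p = 0.0187), from 4645 to 57750.4 CPM in untreated to 278 to 8932 CPM in control ASO mice, with untreated mouse 1 inside the control ASO range, and changed by -4.06 without control ASO mouse 1.

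2 members did not pass. Mup21 stood at 172 to 515 CPM in untreated and 25.4 to 218 CPM in control ASO mice (log2 -1.44, SE 0.60, adjusted p = 0.0749). Mup20 encodes darcin, the male urinary pheromone that attracts females, and showed 389, 7249, 9219.9, 1835 and 2349 CPM in untreated mice. In control ASO mice it had 939 CPM at the lowest, a median of 2671 and 4639 at the highest, within the untreated range (log2 -0.60, SE 0.71, adjusted p = 0.518). On library totals in place of TMM its sign turned to 0.33, while the median of all genes rose to 0.90.

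**Figure D2:**
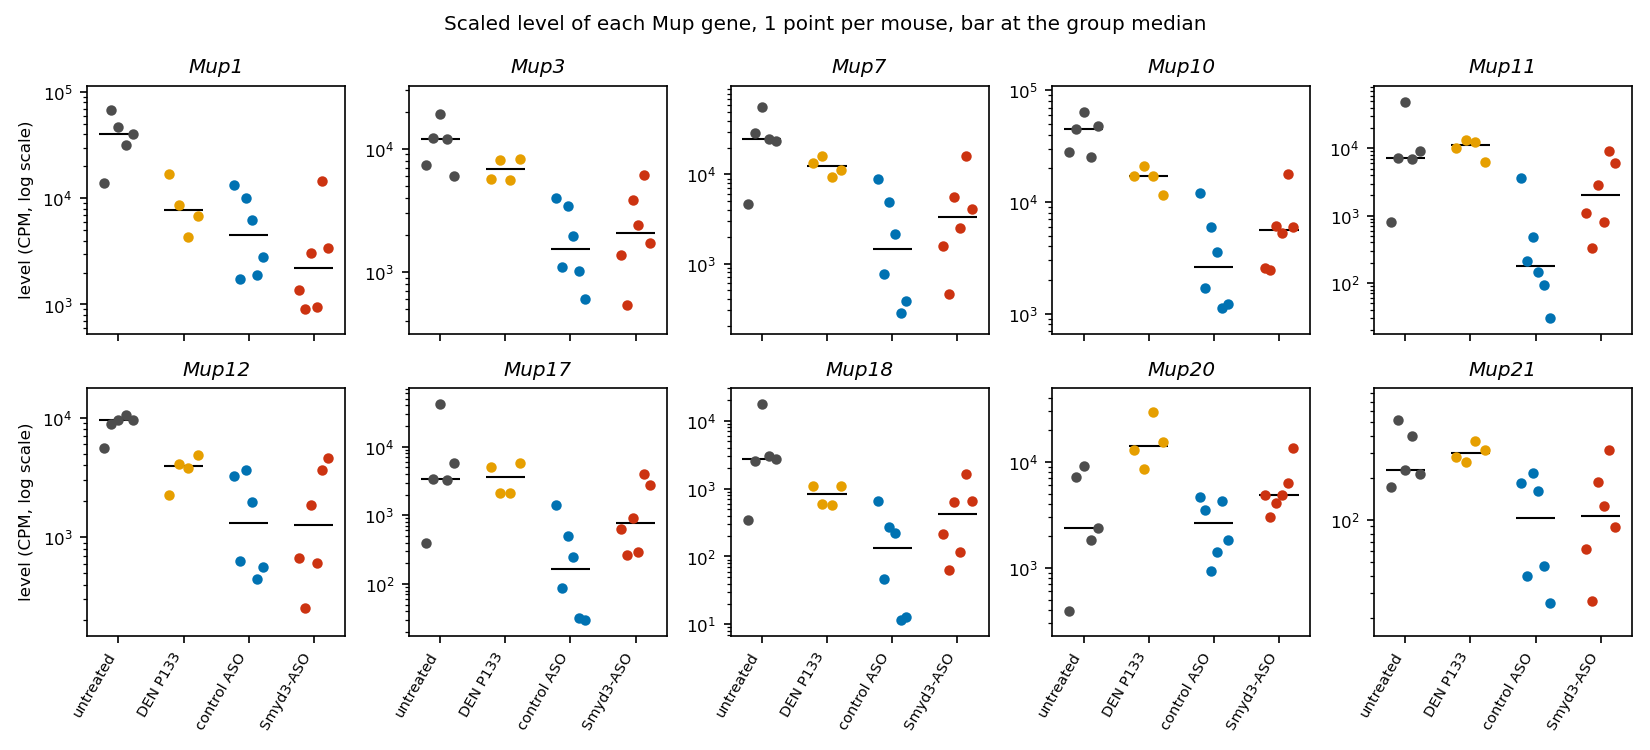
Scaled level (CPM, log axis) of each of the 10 Mup genes in the 21 mice, 1 point per mouse and a bar at the group median, by group. In Mup10 and Mup12 all control ASO and Smyd3-ASO mice lie below all untreated mice, whereas Mup20 has its highest median in DEN P133 mice and untreated mouse 3 stands far above its group in Mup11, Mup17 and Mup18.

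Smyd3-ASO mice also had lower Mup levels than untreated mice, with 6 of the 10 called lower and 0 higher, against 47.6% of all genes called, 23.2% lower and 24.4% higher. The median change of the members was -2.35, beside 0.06 over all genes. Mup10 had 2473 CPM at the lowest, a median of 5584 and 17681 at the highest in Smyd3-ASO mice, all below the untreated mice, and fell 6.40-fold (log2 -2.68, SE 0.49, adjusted p = 0.000651). As a share of all counts Mup10 overlapped, with Smyd3-ASO mouse 5 at 1.89% and untreated mouse 4 at 1.71%. Mup1 had 902 CPM at the lowest, a median of 2223 and 14606 at the highest and fell 9.97-fold (log2 -3.32, SE 0.76, adjusted p = 0.00374), although Smyd3-ASO mouse 5 lay above untreated mouse 1. Without Smyd3-ASO mouse 5 the changes were -4.37 for Mup1, -3.30 for Mup7 and -3.98 for Mup18. Mup3, with 538 CPM at the lowest, a median of 2059.8 and 6138 at the highest, fell 4.29-fold (log2 -2.10, SE 0.53, adjusted p = 0.00557). In CPM its groups overlapped only where Smyd3-ASO mouse 5 passed untreated mouse 5. As a share of all counts Smyd3-ASO mice 3 and 5, at 0.408 and 0.655%, lay above untreated mouse 5, at 0.371%.

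Mup12, at 253 to 4567 CPM, fell 4.61-fold (log2 -2.20, SE 0.64, adjusted p = 0.0138) and in CPM stayed below every untreated mouse. As a share of all counts Smyd3-ASO mouse 6, at 0.569%, lay above untreated mice 1, 2 and 3, at 0.435, 0.568 and 0.544%. Mup7 changed by -2.49 (SE 0.81, adjusted p = 0.0243), which passed the threshold with all mice but not without untreated mouse 3 (adjusted p = 0.0616) or Smyd3-ASO mouse 4 (adjusted p = 0.0518). Mup18 changed by -3.27 (SE 1.06, adjusted p = 0.026), and by -1.98 with an adjusted p of 0.0920 without untreated mouse 3. Its call also ended without Smyd3-ASO mouse 1 (adjusted p = 0.0527), 3 (adjusted p = 0.0517) or 4 (adjusted p = 0.0504). The values of the members that did not pass were -2.91 for Mup17 (adjusted p = 0.0573), -2.14 for Mup11 (adjusted p = 0.111), -1.19 for Mup21 (adjusted p = 0.0938) and 0.52 for Mup20 (adjusted p = 0.539). Mup20 was the member with a positive sign, and on library totals it was called higher (log2 1.52, adjusted p = 0.0488, with the median of all genes at 0.96).

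At day 133, before any oligonucleotide, 3 of the 10 genes were lower in DEN mice than in untreated mice at day 260 and 0 were higher, against 31.6% of all genes called, 16.6% lower and 15.1% higher. The members' median change was -1.20 and that of all genes 0.00. Mup10 stood at 17063, 21043, 17025 and 11448 CPM, below every untreated mouse, and was lower by 2.53-fold (log2 -1.34, SE 0.30, adjusted p = 0.00327). Mup12, at 2238, 4127, 3788 and 4847 CPM, likewise did not overlap the untreated mice in CPM (log2 -1.23, SE 0.25, adjusted p = 0.00176). As shares of all counts both genes overlapped. Mup10 was at 2.13% in DEN P133 mouse 2 and at 1.71% in untreated mouse 4. Mup12 was at 0.477% in DEN P133 mouse 4 and at 0.435% in untreated mouse 1. Mup1 was at 17085, 8656, 4293 and 6805 CPM, where DEN P133 mouse 1 reached the untreated range, and was lower by 4.33-fold (log2 -2.12, SE 0.50, adjusted p = 0.00915). With the spread estimated over all 4 groups, none of these 3 passed (adjusted p = 0.0618 for Mup1, 0.129 for Mup10 and 0.222 for Mup12).

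The other members at day 133 did not pass the test. Mup3 was at 5678, 8041, 5562 and 8195 CPM (log2 -0.72, SE 0.30, adjusted p = 0.0843) and Mup21 at 281, 258, 367 and 317 CPM (log2 0.01, SE 0.31, adjusted p = 0.984). Mup11 was at 10036, 13181, 12457 and 6183 CPM, close together and inside the wide untreated range (log2 -0.50, SE 1.00, adjusted p = 0.743). Its sign turned without untreated mouse 3, to 0.81, as did that of Mup17, to 0.23. Leaving out untreated mouse 1, whose Mup levels were low in most members, brought Mup7 (log2 -1.45, adjusted p = 0.00279) and Mup18 (log2 -2.97, adjusted p = 0.0367) past the threshold.

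Mup20 at day 133 was at 12789, 8471, 29229 and 15496 CPM. Only DEN P133 mouse 2, with 8471 CPM, lay inside the untreated range of 389 to 9219.9 CPM. The difference was log2 1.97, SE 0.87, adjusted p = 0.128, and so did not pass. It passed with DESeq2 (log2 1.99, adjusted p = 0.0275), with all 4 groups in 1 fit (log2 1.97, adjusted p = 0.0346) and on library totals (log2 2.67, adjusted p = 0.0299, with the median of all genes at 0.59).

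**Figure D3:**
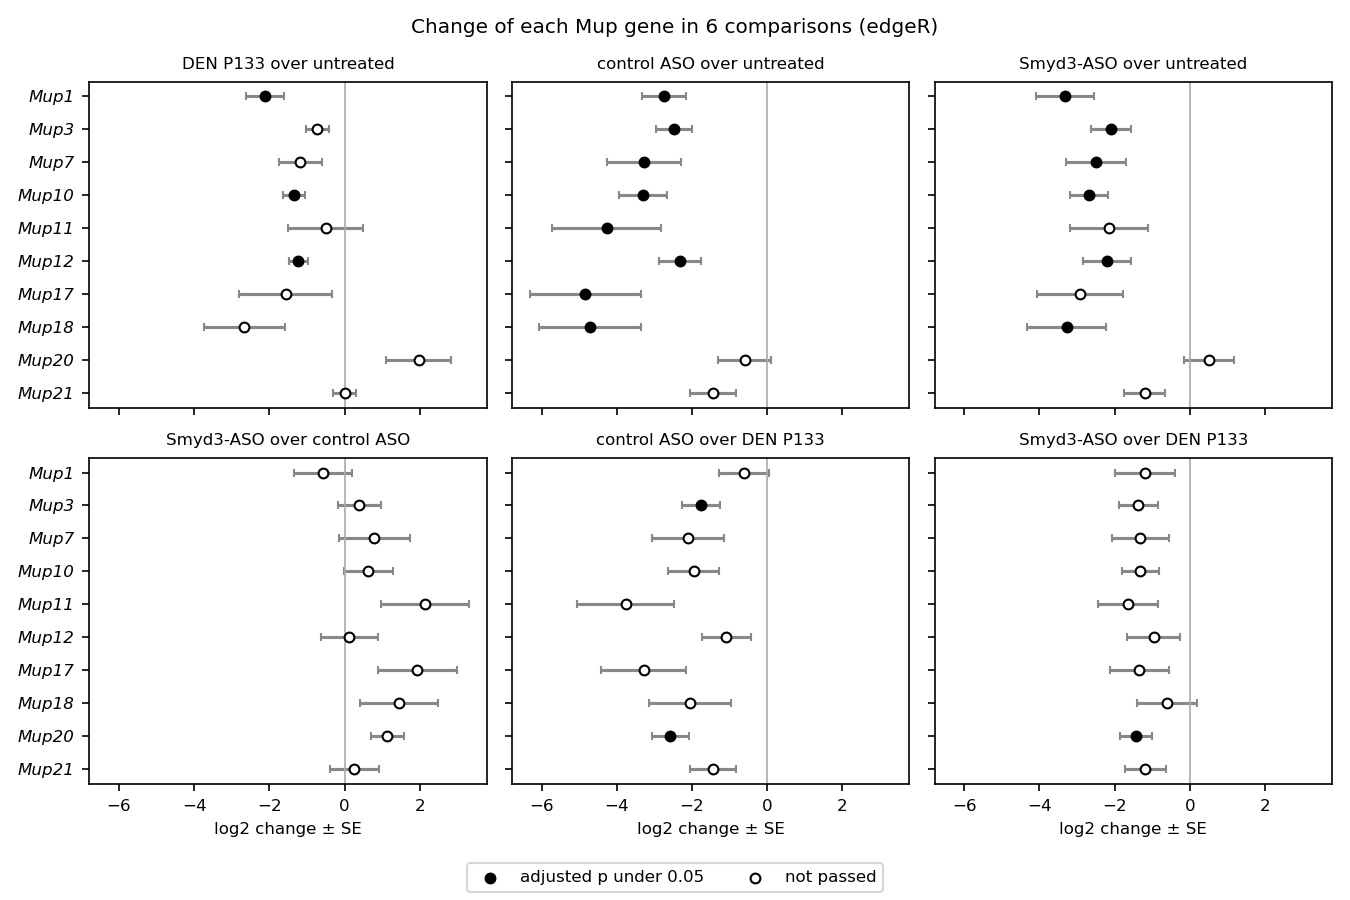
Log2 change (horizontal axis) with its SE for each of the 10 Mup genes in the 6 comparisons, filled where the adjusted p was under 0.05. All 10 points lie left of 0 for control ASO over untreated (on library totals Mup20 turned to 0.33) and for both ASO groups over DEN P133. For Smyd3-ASO over control ASO 9 of 10 lie right of 0 without passing. Mup20 lies apart from the rest in the comparisons with untreated mice.

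The 2 ASO groups, which share DEN, age and injections and differ in the sequence of the oligonucleotide, did not differ in any of the 10 genes at the threshold. Of all genes, 26.1% were called, 13.3% higher and 12.9% lower in Smyd3-ASO mice. At an unadjusted p under 0.05, 1 member (Mup20) differed, where 39.4% of all genes did. DESeq2 called 1 member (Mup20, adjusted p = 0.0240), where it called 4733 of the 15297 genes, 2437 higher and 2296 lower. 9 of the 10 changes were positive, with a median of 0.71 beside 0.01 over all genes, and Mup1 was the negative one (log2 -0.57, SE 0.76). Mup20 ran from 3002 to 13616 CPM in Smyd3-ASO mice with a median of 4878 CPM, and from 939 to 4639 CPM in control ASO mice with a median of 2671 CPM. The ranges overlapped and the difference was 2.20-fold (log2 1.14, SE 0.44, adjusted p = 0.0715).

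Errors were wide for the other members in this comparison. Mup11 differed by 2.13 (SE 1.17, adjusted p = 0.197), Mup17 by 1.94 (SE 1.04, adjusted p = 0.188) and Mup18 by 1.45 (SE 1.04, adjusted p = 0.323). In control ASO mouse 1 Mup11 was at 3636 CPM, while the other control ASO mice had 30.1 to 485 CPM. Without that mouse 3 members passed, namely Mup11 (log2 4.12, adjusted p = 0.0140), Mup17 (log2 3.06, adjusted p = 0.0495) and Mup20 (log2 1.34, adjusted p = 0.0477). That fit called 3784 of the 15297 genes, 1900 of them higher. Mup3, Mup7, Mup10, Mup12 and Mup21 had adjusted p from 0.495 to 0.913, and the sign of Mup3, Mup7, Mup12 and Mup21 turned without Smyd3-ASO mouse 5. Standard errors ran from 0.44 for Mup20 to 1.17 for Mup11 on the log2 scale, so a value that did not pass does not show that the groups are alike.

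Compared with DEN P133, 2 of the 10 genes were lower in control ASO mice (27% of all genes called, 12.6% lower and 14.4% higher), and all 10 signs were negative. Mup20 was lower by 5.94-fold, with every control ASO mouse below every DEN P133 mouse (log2 -2.57, SE 0.50, adjusted p = 0.00409). Mup3 was also without overlap (log2 -1.76, SE 0.50, adjusted p = 0.0261), and lost its call without DEN P133 mouse 2 (adjusted p = 0.0599) or mouse 4 (adjusted p = 0.0636). Without control ASO mouse 1 the number called rose to 6, with Mup7, Mup10, Mup11 and Mup17 added. That fit called 4318 of the 15297 genes, 2039 of them lower. In Smyd3-ASO over DEN P133 all 10 signs were negative as well. There 1 of the 10 was called lower (24.8% of all genes called, 11.7% lower and 13.1% higher), again Mup20 (log2 -1.43, SE 0.42, adjusted p = 0.0284). Smyd3-ASO mouse 6, at 13616 CPM, lay within the DEN P133 range, and the call was lost without DEN P133 mouse 3 (log2 -1.01, adjusted p = 0.108), DEN P133 mouse 4 (adjusted p = 0.0577), or Smyd3-ASO mouse 1 (adjusted p = 0.0562) or 4 (adjusted p = 0.0569). Without Smyd3-ASO mouse 5 the number called rose to 6, with Mup1, Mup3, Mup7, Mup10 and Mup21 added. That fit called 3803 of the 15297 genes, 1802 of them lower.

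On library totals in place of TMM, the median change of all genes was 0.90 for control ASO, 0.96 for Smyd3-ASO and 0.59 for DEN P133 over untreated, and 0.28 and 0.34 for the 2 ASO groups over DEN P133. The share of calls that were higher moved with it, from 51.6 to 93.6%, from 51.2 to 91.4%, from 47.7 to 88.7%, from 53.3 to 79.6% and from 53.0 to 82.1%. Against this shift the counts of lower members were 8, 4, 2, 2 and 0. The calls that ended were those of Mup7 and Mup12 in Smyd3-ASO over untreated, of Mup12 in DEN P133 over untreated and of Mup20 in Smyd3-ASO over DEN P133. Between the 2 ASO groups the median was 0.04 on library totals. Scaling factors computed without any Mup row left all 60 member results on the same side of the threshold and with the same sign.

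The make-up of the Mup counts also differed between groups. Mup20 supplied 0.259, 1.94, 1.38, 0.624 and 0.748% of all Mup counts in untreated mice and 7.04, 5.69, 18.2 and 9.33% in DEN P133 mice, without overlap. In Smyd3-ASO mice its part was 4.10 to 16.8%, above every untreated mouse, and in control ASO mice it spread from 1.33 to 27.3%. The 3 control ASO mice with the least Mup RNA in all, mice 2, 5 and 6, were those in which Mup20 had its largest parts, at 18.1, 27.3 and 12.9%. Mup1 supplied 7.10 to 18.0% in untreated and 9.05 to 19.7% in control ASO mice, but 2.67 to 9.40% in DEN P133 and 2.55 to 9.47% in Smyd3-ASO mice. For Mup10 the part was 8.56 to 18.5% in untreated mice, 6.89 to 14.1% in DEN P133, 7.11 to 10.9% in control ASO mice, and 6.33 to 14.2% with Smyd3-ASO, overlapping throughout. Mup1 and Mup10 lie among the genes with wholly shared 3′ ends, so their parts carry the uncertainty of read assignment.

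**Figure D4:**
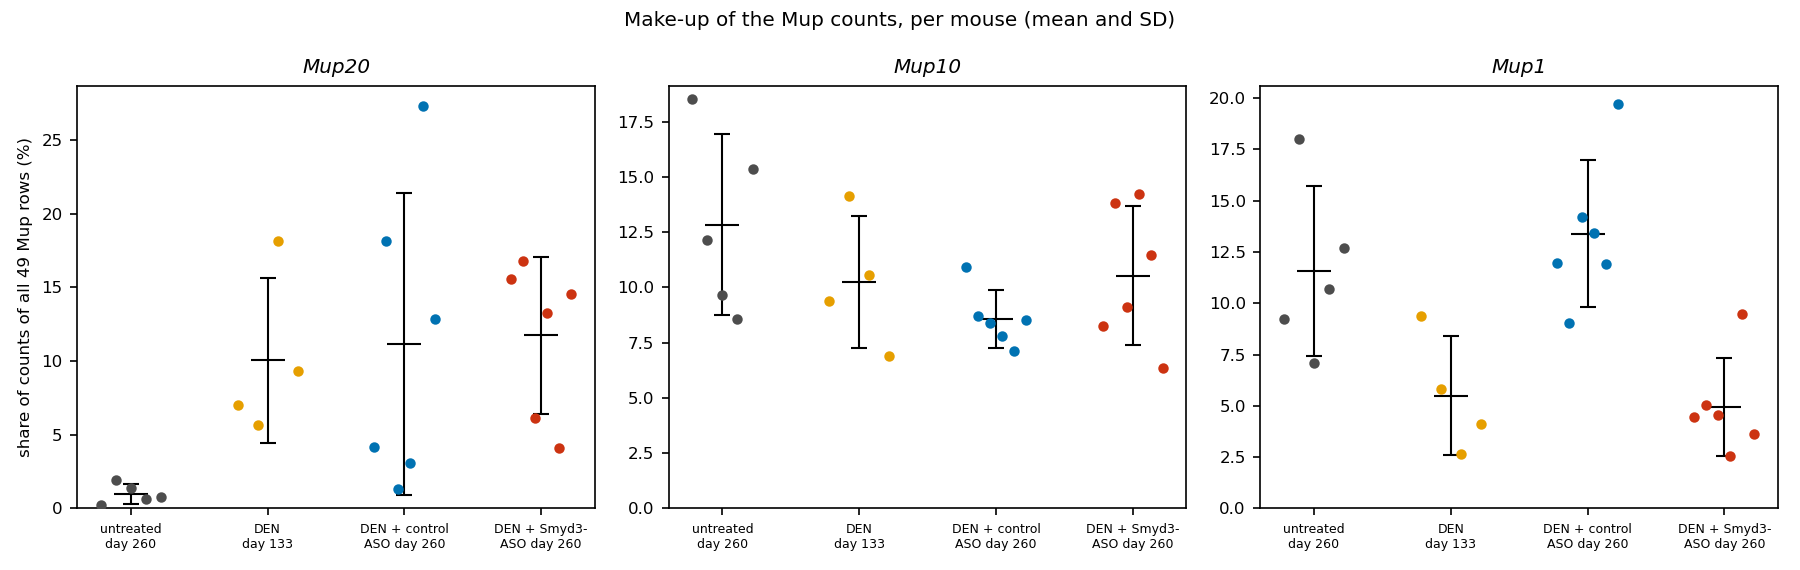
Percent of the counts of all 49 Mup rows (vertical axes from 0) supplied by Mup20, Mup10 and Mup1, 1 point per mouse, with the group mean and SD. Mup20 is at 0.259 to 1.94% in untreated mice and at 5.69 to 18.2% in DEN P133 mice, Mup10 overlaps between all groups, and all but 1 of the DEN P133 and all but 1 of the Smyd3-ASO mice lie below every control ASO mouse in Mup1.

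Across the 21 mice, 9 of the 10 genes varied together and Mup20 less so. The median Pearson r of log2 CPM with the other members was 0.798 to 0.91 for the 9 and 0.256 for Mup20. With group means removed it was 0.746 to 0.886 and 0.228. These are descriptions over mice that share groups and, for the central genes, reads. Genes outside the family with the most similar pattern to the summed members were Ces3a (r = 0.942), Nudt7 (r = 0.939), Cyp2f2 (r = 0.921), Ttc39c (r = 0.916) and Ces3b (r = 0.916), among 9960 genes compared over 21 mice. Ces3a and Ces3b encode hepatic carboxylesterases and Nudt7 a peroxisomal coenzyme A diphosphatase. Mean Ces3a levels were 1304 CPM in untreated, 891 in DEN P133, 291 in control ASO mice, and 294 with Smyd3-ASO. Taken singly, Mup3 (r = 0.958) and Mup21 (r = 0.901) were closest to Slco1a1, an organic anion transporter of male liver. Mup20 was closest to Csad, the taurine-forming cysteine sulfinic acid decarboxylase (r = 0.784), whose mean was 111 CPM in untreated, 367 in DEN P133, 82.6 in control ASO mice, and 157 with Smyd3-ASO. The closest genes for the rest were Daglb for Mup1 (r = 0.907), Cyp2f2 for Mup7 (r = 0.916), Nudt7 for Mup10 (r = 0.94), Cnih1 for Mup11 (r = 0.91), Snx19 for Mup12 (r = 0.914) and Letm1 for Mup17 (r = 0.921) and Mup18 (r = 0.918).

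Most of the other protein-coding Mup genes were lower in both ASO groups than in untreated mice. In control ASO over untreated mice 12 of 12 were lower, in Smyd3-ASO over untreated 10 of 12 and in DEN P133 over untreated 6 of 12, against 22.2, 23.2 and 16.6% of all genes, with none higher. Over DEN P133, 3 of 12 were lower in control ASO and 1 of 12 in Smyd3-ASO mice, against 12.6 and 11.7% of all genes. Mup14 fell from 27394 to 117206 CPM in untreated to 1170 to 10159.8 CPM in control ASO mice (log2 -3.82, SE 0.63, adjusted p = 0.000329). Mup5, a diverged member of the far part of the cluster, stood at 665 to 1150.2 CPM in untreated and at 6.54 to 240.2 CPM in control ASO mice, and fell (log2 -3.53, SE 0.73, adjusted p = 0.00306). Mup8, Mup9 and Mup19, like Mup1, had negative values between the ASO groups (log2 -0.58, -0.71 and -0.67) that did not pass.

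Of the 18 tested pseudogenes, 6 were lower in control ASO than in untreated mice, against 22.2% of all genes. Between the ASO groups 4 of 18 were higher in Smyd3-ASO mice, and 0 of the 12 other coding genes, against 13.3% of all genes. Mup-ps19 was at 225 to 445 CPM in Smyd3-ASO and 43.6 to 168 CPM in control ASO mice, without overlap, and rose by 1.67 on the log2 scale (SE 0.33, adjusted p = 0.003). Mup-ps21 rose as well (log2 1.59, SE 0.38, adjusted p = 0.00852). Both stayed past the threshold in all 19 alternatives run. Along the chromosome Mup-ps19, Mup-ps20 and Mup-ps21 are the rows directly before Mup20. Mup-ps20 (adjusted p = 0.0312) passed in 9 of 19 alternatives and Mup-ps8 (adjusted p = 0.0271) in 14. Both were near the floor in control ASO mice. Mup-ps20 had 0 to 1.36 CPM there, and 0.116 to 38.8 CPM with a median of 1.21 in Smyd3-ASO mice. Mup-ps8 had 0.162 to 1.51 CPM in control ASO and 1.15 to 7.23 CPM in Smyd3-ASO mice.

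**Figure D5:**
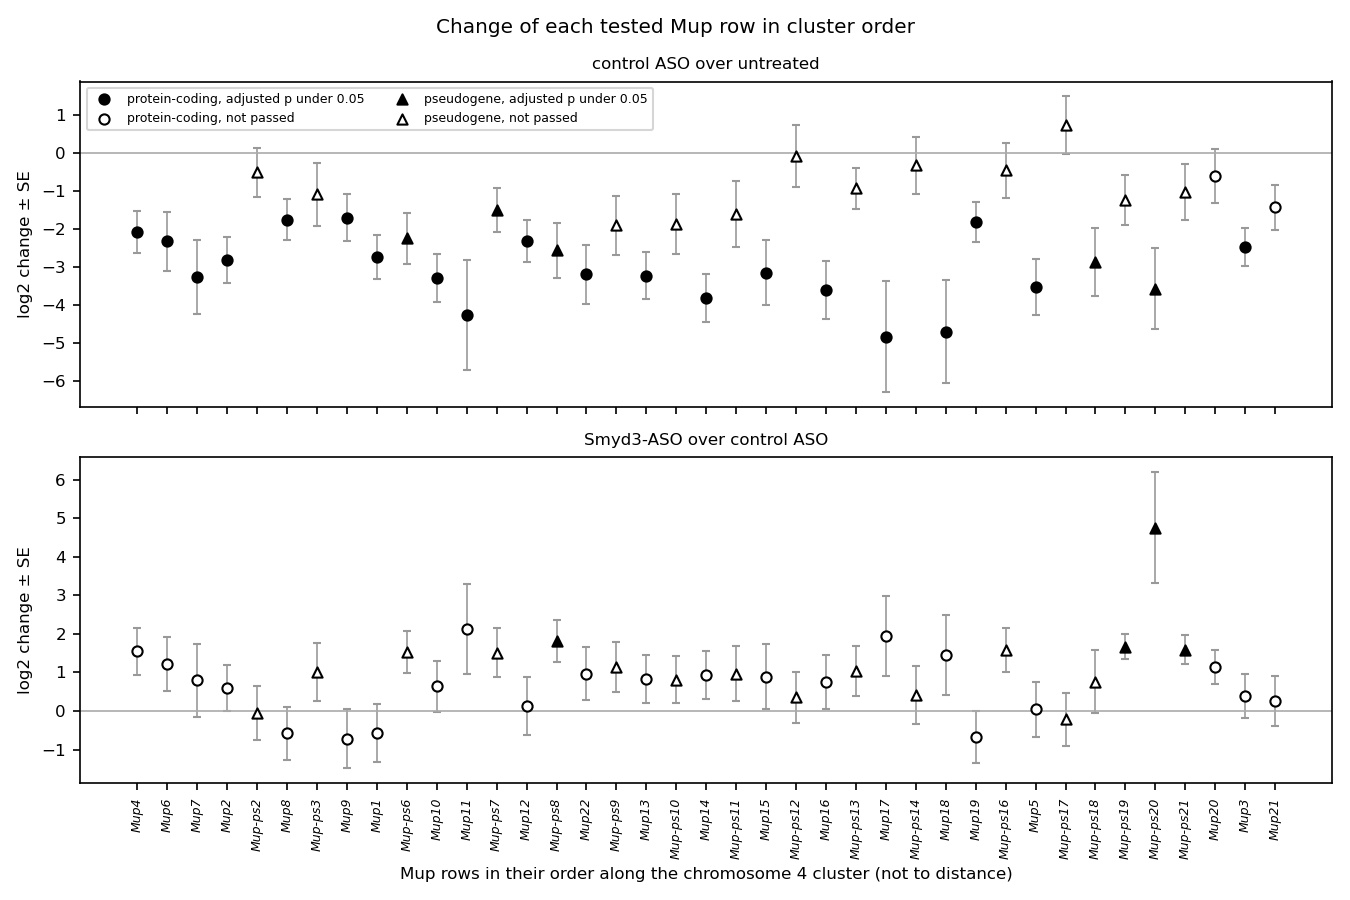
Log2 change with its SE (vertical axes) of each tested Mup row, in the order of the chromosome 4 cluster and not to distance, for control ASO over untreated (top) and Smyd3-ASO over control ASO (bottom). Circles are protein-coding genes, triangles pseudogenes, and filled symbols passed. Coding genes lie well below 0 in the upper panel up to the far right end. There Mup20 and Mup21 did not pass, while Mup3, which lies between them, passed (log2 -2.48). In the lower panel 3 of the 4 rows that passed, Mup-ps19, Mup-ps20 and Mup-ps21, adjoin Mup20. Mup-ps20 was near the floor, at 0 to 1.36 CPM in control ASO mice.

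Genes known to be more active in male than in female liver were also counted. Of 18 such genes outside the family, 12 were lower and 0 higher in control ASO than in untreated mice and 6 did not pass, with a median of -1.89, where 22.2% of all genes were lower and 23.7% higher. In Smyd3-ASO over untreated mice 9 were lower, 0 higher and 9 did not pass (median -1.30), against 23.2% of all genes lower. In DEN P133 over untreated mice 5 were lower, 1 higher and 12 did not pass (median -0.58), against 16.6% of all genes lower and 15.1% higher. The 4 with the smallest adjusted p over the comparisons were Ugt2b38, Nudt7, C6 and Cyp4a12a. Ugt2b38, a glucuronosyltransferase, changed by -4.17 in control ASO over untreated mice (adjusted p = 2.09e-06), and Cyp4a12a, a fatty acid hydroxylase of male liver, by -2.74 (adjusted p = 0.000335). Nudt7 changed by -2.04 (adjusted p = 1.27e-05), while the complement component C6 did not pass (log2 -0.91, adjusted p = 0.0644). Between the ASO groups 4 of the 18 were higher in Smyd3-ASO mice and 0 lower, against 13.3 and 12.9% of all genes, among them Ugt2b38 (log2 3.11, adjusted p = 0.000515). The others were Cyp4a12b, Ugt2b1 and Elovl3, named after their values were seen.

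Of 19 tested genes more active in female liver, 9 were higher and 1 lower in control ASO over untreated mice (median 2.35), against 23.7 and 22.2% of all genes. Over DEN P133, 12 were higher and 2 lower in control ASO mice (median 3.67), against 14.4 and 12.6% of all genes. In Smyd3-ASO over untreated mice 3 were higher and 2 lower (median 0.34), against 24.4 and 23.2% of all genes. In DEN P133 over untreated mice 2 were higher and 0 lower (median -0.80), against 15.1 and 16.6% of all genes. In control ASO over untreated mice Cyp2a4, a steroid hydroxylase, rose by 7.10 on the log2 scale (adjusted p = 7.83e-05), and Cyp3a41b by 5.52 (adjusted p = 5.67e-05). Abcd2, a peroxisomal fatty acid transporter, rose by 2.46 (adjusted p = 0.00279), and Cyp2b9 had a value of 2.23 that did not pass (adjusted p = 0.0961). In Smyd3-ASO over control ASO mice 13 of the 19 were lower and 3 higher, with a median of -3.15, against 12.9 and 13.3% of all genes. Cyp3a41b fell by 4.76, Cyp2a4 by 4.31, Cyp2b9 by 4.15 and Abcd2 by 3.17, with adjusted p of 0.000141, 0.000155, 1.84e-05 and 3.67e-05. The 10 Mup genes did not pass in that comparison, as given above.

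Among 22 tested genes of growth hormone signalling and known regulators of Mup transcription, 10 were lower and 2 higher in control ASO than in untreated mice (median -0.42), and 11 were lower and 3 higher in Smyd3-ASO mice (median -0.42). Of all genes, 22.2% were lower and 23.7% higher in the former comparison, and 23.2 and 24.4% in the latter. At day 133, 5 of the 22 were lower and 6 higher than in untreated mice (median -0.27), against 16.6 and 15.1% of all genes. Ghr, the growth hormone receptor, fell by 1.81 in control ASO mice (adjusted p = 8.70e-06) and by 2.51 in Smyd3-ASO mice (adjusted p = 0.000123), and changed by -0.55 at day 133 (adjusted p = 0.0202). Cebpa, a hepatocyte transcription factor, fell by 1.32, 2.03 and 1.52 in the same 3 comparisons (adjusted p = 3.70e-05, 1.07e-06 and 2.07e-05). Hnf4a, a further hepatocyte factor, changed by -1.01, -1.31 and -0.69 (adjusted p = 1.35e-05, 6.63e-05 and 0.00112). On library totals the fall of Hnf4a in control ASO mice no longer passed (adjusted p = 0.363), as the whole scale shifted by 0.90. Between the ASO groups 2 of the 22 were higher (Cebpb and Stat5a, named after their values were seen) and 3 lower (Cebpa, Igfals and Nr3c1), against 13.3 and 12.9% of all genes.

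Of 23 other secreted products of hepatocytes, 7 were lower and 3 higher in control ASO than in untreated mice, against 22.2 and 23.7% of all genes, with a median of -0.38 beside -3.01 for the 10 Mup genes. In Smyd3-ASO over untreated mice 12 were lower and 1 higher, against 23.2 and 24.4% of all genes, with a median of -1.16 beside -2.35. At day 133, 12 were lower and 0 higher, against 16.6 and 15.1% of all genes, with a median of -0.99 beside -1.20. Ahsg, the plasma glycoprotein fetuin-A, was at -0.16 in control ASO over untreated mice (adjusted p = 0.665), while Ttr, the thyroid hormone carrier transthyretin, fell by 1.71 (adjusted p = 0.000298). Of the antitrypsin genes, Serpina1b fell by 1.60 (adjusted p = 0.000187) and Serpina1a was at -0.03 (adjusted p = 0.929). The groups of genes were described by counts and medians, and the difference between them was not tested. In Smyd3-ASO over control ASO mice 8 of the 23 were lower and 0 higher, against 12.9 and 13.3% of all genes, among them Ahsg (log2 -2.25) and Serpina1b (log2 -2.33).

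Lipocalins outside the family gave mixed results. Of 9 tested, 4 were lower and 0 higher in control ASO over untreated mice, with a median of -1.15, against 22.2 and 23.7% of all genes. At day 133, 1 was lower and 0 higher than in untreated mice (median -1.32), against 16.6 and 15.1% of all genes. In control ASO over untreated mice C8g, a complement subunit, changed by -1.04 (adjusted p = 0.00105) and Ptgds, prostaglandin D synthase, by -2.14 (adjusted p = 0.00119). Apom, a carrier of sphingosine phosphate, was at -0.11 (adjusted p = 0.684) and Lcn2, an acute phase siderophore binder, at -1.84 (adjusted p = 0.375). Between the ASO groups 2 of the 9 were higher in Smyd3-ASO mice, namely Orm1 and Orm2, named after their values were seen, and Apom was lower (log2 -1.39, adjusted p = 0.00302). Of all genes, 13.3% were higher and 12.9% lower, so these counts lie close to the background.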

How the data were processed

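Liver RNA of 21 mice was sequenced as 35 libraries with the QuantSeq 3′ kit, per the labels' protocols. The submitters' processing notes name HISAT2 2.1.0, the mm10 genome and DESeq. The read counter, its annotation and its handling of reads that fit several genes are not given in the sources used here. The authors deposited raw counts for 55413 Ensembl genes, with the libraries of each ASO mouse already merged (2 per control ASO mouse, 1 to 3 per Smyd3-ASO mouse). A second table they deposited holds a size-factor score, and 100% of its values lay within 0.51 of the raw count over that factor.

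Ids were mapped to symbols, positions and transcripts with GENCODE vM21. The raw counts were fitted with edgeR 4.0.16 (R 4.3.3) on the 2 groups of each comparison, using its robust quasi-likelihood test after TMM scaling and Benjamini-Hochberg adjustment over the 15297 genes kept by filterByExpr. The scripts were tested on simulated data. Levels in CPM use TMM over all 21 mice. Shares are of each mouse's total count. Alternatives were library totals, TMM without Mup rows, DESeq2 1.42.0, limma 3.58.1 voom, no filter, 1 fit of all 4 groups, a replicate block and leaving out each mouse. Total counts were 10186780 to 13116012 in untreated, 4556484 to 6447397 in DEN P133, 6789715 to 13805881 in control ASO mice, and 6358080 to 20258619 with Smyd3-ASO, which limits precision far less than the spread between mice.

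The members and lists were chosen with earlier results of these data known. Named genes were the members, other Mup rows with a group mean of at least 1 CPM, the 4 genes of each list with the smallest adjusted p, and genes of like pattern by Pearson r with mean log2 CPM of at least 2. The labels call the mice biological replicates. Pairwise protein identity was planned and not analysed here.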

Additional observations from a re-analysis of the deposited data

Results flagged for a closer look

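Among 48 sets of values (10 genes and 2 sums in 4 groups), 10 had a mouse far above the rest of its group by Dixon's criterion, and these fell on 4 mice. For normally distributed values chance flags about 1 in 20 groups. The criterion was applied to CPM without logs and all 10 flags were on the high side, so that rate need not hold here. The values of 1 mouse in related genes are not independent. In Smyd3-ASO mouse 5, Mup1 was at 14606 CPM, Mup7 at 15912, Mup10 at 17681 and Mup18 at 1639 CPM, where the next mouse of the group had 3398, 5613, 6112 and 647 CPM. In untreated mouse 3, Mup11 was at 49516, Mup17 at 42207 and Mup18 at 17812 CPM, against 9102, 5713 and 2973 CPM in the next untreated mouse. In control ASO mouse 1, Mup11 was at 3636 and Mup17 at 1427 CPM, against 485 and 494 CPM in the next mouse. Mup20 was at 13616 CPM in Smyd3-ASO mouse 6 and at 6327 CPM in the next mouse, so that the mouse highest in Mup20 was not the one highest in Mup1, Mup7 and Mup10.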

How the results depend on the processing

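With 4 to 6 mice a group, spread between mice limited these results more than depth, and shared 3′ ends limit single values of the central genes. Of 60 member results (10 genes in 6 comparisons), factors computed without Mup rows changed 0 calls or signs, DESeq2 added 12 calls, voom added 5, a missing filter ended 6, and 1 fit of all groups added 4 and ended 4; the cause was not tested. The deposited score kept all 60 directions.

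Signs turned on library totals for Mup20 in control ASO over untreated (0.33) and Mup11 in DEN P133 over untreated (0.25), where voom gave 0.47 for Mup11. For Mup21 in DEN P133 over untreated, no filter gave -0.029 and leaving out 1 mouse -0.14 to 0.28. In the same comparison leaving out 1 mouse gave -0.81 to 0.81 for Mup11 and -1.88 to 0.23 for Mup17. Between the ASO groups, leaving out 1 mouse gave -0.044 to 0.71 for Mup3, -0.029 to 1.57 for Mup7, -0.33 to 0.48 for Mup12 and -0.20 to 0.56 for Mup21.

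In Smyd3-ASO over control ASO, DESeq2 called 1 member higher (2437 of all genes higher). Leaving out 1 mouse called 0 to 3, and the genes called ran from 3233 to 4446. In control ASO over untreated, library totals called 10723 genes, and leaving out 1 mouse gave 6 to 8 members lower and 6208 to 6886 genes. In Smyd3-ASO over untreated, library totals called 1 member higher (9522 of all genes higher) and no filter 3 lower (3103 of all genes lower). Leaving out 1 mouse there gave 4 to 8 members lower and 6434 to 7502 genes. In DEN P133 over untreated, library totals called 7292 genes (6471 higher) and 1 member higher. DESeq2 and 1 fit of all groups called 1 member higher each (2434 and 2201 of all genes higher). The fit of all groups called 0 members lower (2453 of all genes lower). Leaving out 1 mouse gave 3 to 5 members lower and 3977 to 4947 genes. In control ASO over DEN P133, DESeq2 called 6 members lower, voom 5, 1 fit of all groups 4 and no filter 1. Those fits had 2094, 1929, 1712 and 1566 of all genes lower. Leaving out 1 mouse gave 1 to 6 members lower and 3137 to 4318 genes. In Smyd3-ASO over DEN P133, DESeq2 called 3 members lower and voom 2 (2050 and 1745 of all genes lower). Library totals, no filter and 1 fit of all groups called 0 each (736, 1306 and 2168 of all genes lower). Leaving out 1 mouse gave 0 to 6 members lower and 2519 to 4282 genes. Of all calls in that last comparison voom had 42.3% higher, beside 53.0%.

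The mean share of counts moved to 22.6, 16.4, 5.28 and 7.68% over all Mup rows in untreated, DEN P133, control ASO and Smyd3-ASO mice, and to 16.6% in untreated mice on TMM-scaled totals. Leaving out 1 mouse gave 8.47 to 11.8, 7.92 to 8.39, 1.80 to 2.71 and 2.72 to 4.17%.

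Replicate numbers name different mice, and same-numbered mice did not deviate together (r from -0.12 to 0.11; at most 1 mouse in a comparison correlated best with its own number). With the number as a replicate block, 4 members were lower in control ASO over untreated (2817 of all genes lower). In control ASO over DEN P133 the block called 2543 genes. In Smyd3-ASO over DEN P133, 8 members were lower with it (1896 of all genes lower). The block gave -0.29 for Mup12 between the ASO groups and 0.50 for Mup11 in DEN P133 over untreated.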

Other observations

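Mup-ps22, a processed pseudogene on chromosome 11 and the 1 Mup row outside the chromosome 4 cluster, had 661 to 3302 CPM in untreated, 288 to 696 in DEN P133, 50.3 to 588 in control ASO and 151 to 1044 CPM in Smyd3-ASO mice. It changed by -2.88 in control ASO over untreated mice (edgeR, SE 0.72, adjusted p = 0.00823). Stretches shared with other Mup rows were counted for the 10 members only. Whether the Mup-ps22 counts include reads of the cluster genes was not tested. Among untreated mice, mouse 1 had the smallest share of counts in the 10 Mup genes, 4.81%, and mouse 3 the largest, 18.0%.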
